A study of Homo sapiens with 8 samples.

Results

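Removal of serine and glycine from the medium for 8 h was followed here across all 4 matched pairs of libraries that the study holds, 8 libraries of 8 in the series. The cells are hTERT-RPE1, a human line of retinal pigment epithelial origin immortalised with telomerase. One library of each pair came from cells grown for 2 days in complete medium, washed with saline and kept for 8 h in medium lacking serine and glycine, called starved below. The other came from cells labelled complete medium. The 4 pairs are wild type in batch 1, cells labelled ATF3 knockout in batch 1, wild type in batch 2 and cells labelled ATF3 knockout in batch 2. Each of the 4 groups of genotype and medium thus holds 2 libraries, 1 per batch, and the series text says that a number marks cells treated together. How the knockout was made and whether it is 1 clone are not given in the sources used. Nor do these say if cultures in complete medium were also washed and refed, so loss of serine and glycine cannot be told apart from a change of medium. Expression is in FPKM, which scales fragments by transcript length and library size. The difference between media was estimated with 1 term per pair on log2(FPKM + 1) in the 11157 genes, of 57884 listed, with an FPKM of at least 1 in all 8 libraries. Values of 4 libraries are given throughout in the order wild type batch 1, labelled knockout batch 1, wild type batch 2, labelled knockout batch 2.

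Serine is made from a glycolytic intermediate by the enzymes PHGDH, PSAT1 and PSPH. Serine hydroxymethyltransferases split it into glycine and a folate-bound one-carbon unit used for nucleotides. Uncharged tRNA activates the kinase GCN2, which phosphorylates the initiation factor eIF2. General translation then falls while translation of the transcription factor ATF4 rises. ATF4, with C/EBP partners, binds composite C/EBP-ATF elements near genes for amino acid transport, amino acid synthesis and tRNA charging. ATF3 is itself an ATF4 target and encodes a stress-induced factor of the same family.

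The genotype's own gene does not separate the labels at the RNA level. ATF3 (ENSG00000162772, chr1:212738676-212794119 in hg19, the build of the files) had 6.46, 4.45, 18.01 and 57.3 FPKM in starved cells, against 3.47, 3.38, 3.65 and 20.8 FPKM in complete medium. In batch 2 both libraries labelled knockout lay above their wild-type partners, and a coding deletion need not lower the RNA, so these values check the labels only in part. The batches also differ in lineage genes although all libraries carry the same cell line label. SPARC, a matrix protein, had 343, 403, 1.66 and 0.0903 FPKM in starved cells, against 343, 429, 0.6198 and 0.4499 FPKM in complete medium. KRT19, an epithelial keratin, had 0.143, 0.741, 216 and 306 FPKM in starved cells, against 0.281, 0, 321 and 375 FPKM in complete medium, and CDH1, which encodes E-cadherin, had 1.15, 0.618, 1.23 and 56.2 FPKM in starved cells, against 0.737, 0.201, 0.5405 and 59.95 FPKM in complete medium. SPARC was thus high in batch 1 alone, KRT19 in batch 2 alone and CDH1 in the batch 2 cells labelled knockout alone. These genes do not stand for all lineage markers. The epithelial keratin KRT8 had 213, 156, 34.5 and 148 FPKM in starved cells, high in batch 1 too. The mesenchymal marker TWIST1 had 0.153, 0, 12.6 and 5.39 FPKM in starved cells, higher in batch 2. Of 12 markers of retinal pigment epithelium, 1 (MITF) passed the filter. OTX2 was listed at 0 in all 8 libraries, and RPE65, RLBP1, TYR, TYRP1, DCT and TTR stayed under 1 FPKM throughout. The summed level of the 12 was 4.6 to 15.4 FPKM in starved cells and 5.7 to 12.8 FPKM in complete medium. Summed epithelial markers ranged over 237.4 to 1026.0 FPKM in starved cells and 229.3 to 1257.3 FPKM in complete medium. Summed mesenchymal markers ranged over 140.6 to 1364.5 and 148.5 to 1158.6 FPKM in the same order. Immune and endothelial markers summed to at most 16.0 and 1.6 FPKM. Between 14050 and 15784 genes reached 1 FPKM per library. Absolute depth is unknown; low values give relative depths of 1.00 to 1.27. In bulk RNA, fewer cells of a kind and less RNA per cell cannot be told apart.

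Across the 11157 genes, 423 rose in serine/glycine-free medium (3.79%) and 209 fell (1.87%), by limma with Benjamini-Hochberg adjustment at 0.05. All of them had 1 sign in all 4 pairs, against 2140 genes higher (19.2%) and 1532 lower (13.7%) in all 4 pairs among all those tested. The median log2 fold change was 0.65 for genes called higher, with a range of 0.31 to 3.80, and −0.62 for genes called lower, with a range of −2.19 to −0.30. In all, 79 rose by at least 1 on the log2 scale and 9 fell by at least 1. In 158 of the 423 and 52 of the 209 the 4 serine/glycine-free libraries did not overlap the 4 complete-medium libraries, which held for 261 (2.34%) and 134 (1.2%) of all genes tested. The split moved with scaling: 66.9% of calls were higher as deposited and 53% (271 higher, 240 lower) when libraries were rescaled to equal sums, which shifted the median of all genes from 0.02 to −0.03. The counts also rest on the filter and on every pair: with genes at 1 FPKM or more in at least 2 libraries, 17994 in all, 75 rose and 11 fell, and leaving out any 1 of the 4 pairs left 117 to 161 higher and 19 to 48 lower.

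**Figure D1:**
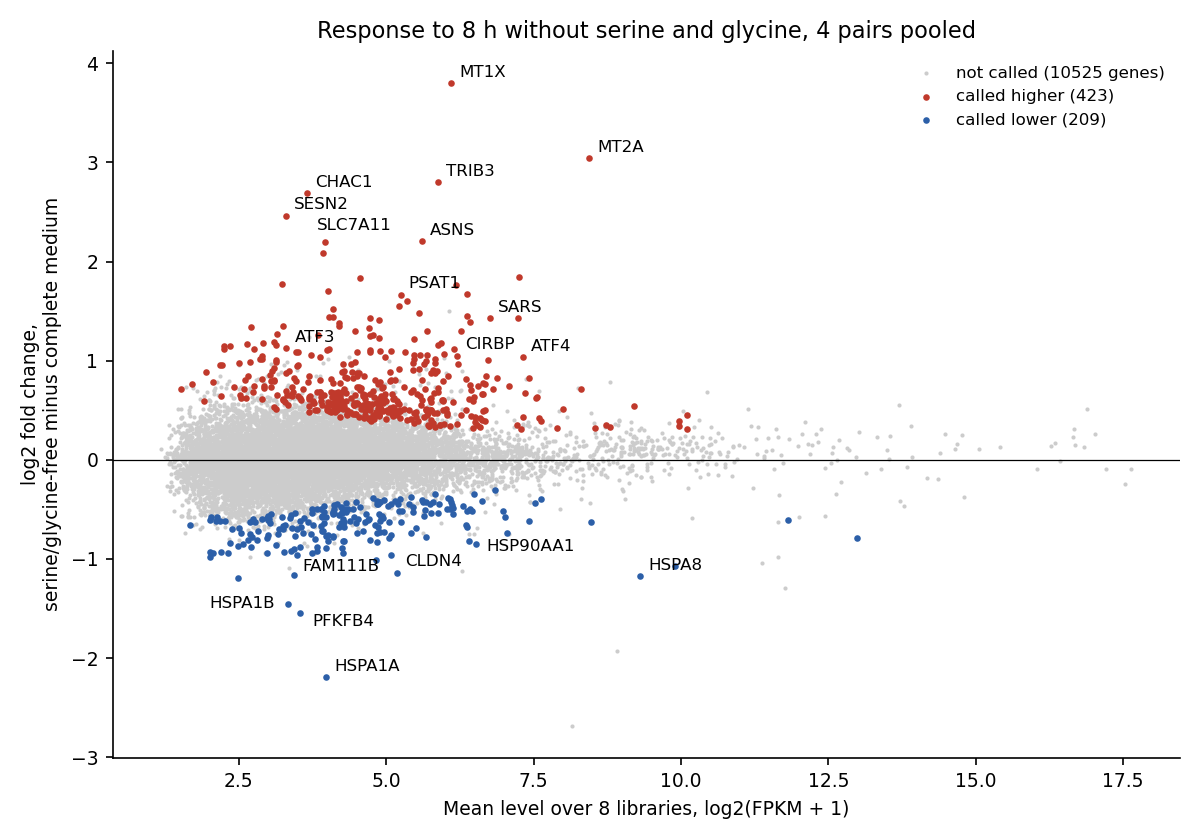
Each point is 1 of 11157 genes, with its mean log2(FPKM + 1) over 8 libraries on the x axis and its log2 fold change, serine/glycine-free minus complete medium, on the y axis. The 423 genes called higher are red and the 209 called lower blue; MT1X at 3.80 and HSPA1A at −2.19 lie at the ends of the called range, and 1 gene with a larger decrease was not called.

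Short DNA sequences known for ATF4, heat shock factor and metal-responsive binding were looked up in RefSeq promoter windows (GRCh38.p14, 250 bases before to 50 after a start), which matched 8486 of the 11157 tested genes. A gene counted once if any of its windows matched, so shares of genes and shares of single windows are unlike measures. The C/EBP-ATF letters TGATGNAAN, on either strand, occurred in 29 of 318 searched genes that rose (9.12%) and 1 of 165 that fell (0.606%). They occurred in 210 of 8423 tested genes (2.49%) and in 3.61% of all 35116 windows. The heat shock letters GAANNTTCNNGAA or TTCNNGAANNTTC occurred in 0 of 318 genes that rose, in 5 of 165 that fell (3.03%), in 0.475% of tested genes and in 0.49% of all windows. The metal-response letters TGCACNC or TGCGCNC are short and frequent, at 46.2% of genes that rose, 52.1% of those that fell, 46.9% of tested genes and 29.6% of windows. The cyclic AMP letters TGACGTCA occurred in 4.4%, 2.42%, 4.26% and 1.85% of the same sets, and the sterol letters TCACNCCAC in 2.83%, 0.606%, 1.4% and 1.13%. The C/EBP-ATF and cyclic AMP letters differ at the fourth base and cannot match at 1 position; overlaps of other motifs were counted for each. A match is a description of letters and not of binding.

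The following 10 promoter sites of genes that rose are shown because most of their genes belong to the roles described below, from ATF4 feedback to transport and tRNA charging, and FHL2, in none of the lists, was among the smallest p-values; the C/EBP-ATF letters are in capitals, on the strand on which they read, with up to 15 bases either side.
ASNS, chr7:97872453-97872491, minus strand: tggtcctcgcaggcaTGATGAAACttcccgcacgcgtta
CHAC1, chr15:40953246-40953284, minus strand: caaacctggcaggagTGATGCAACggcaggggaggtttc
CEBPG, chr19:33374056-33374094, plus strand: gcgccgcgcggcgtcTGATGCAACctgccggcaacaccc
ATF3, chr1:212565201-212565239, plus strand: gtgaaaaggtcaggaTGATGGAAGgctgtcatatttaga
SLC3A2, chr11:62881720-62881748, minus strand: ggagcTGATGTAAGgagtcctgcacatta
SLC1A5, chr19:46784888-46784926, minus strand: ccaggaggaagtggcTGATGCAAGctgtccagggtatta
AARS, chr16:70289671-70289709, plus strand: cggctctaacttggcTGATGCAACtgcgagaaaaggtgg
TARS, chr5:33440951-33440989, minus strand: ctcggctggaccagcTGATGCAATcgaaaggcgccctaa
MTHFD1L, chr6:150866342-150866380, plus strand: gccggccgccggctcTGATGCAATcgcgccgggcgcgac
FHL2, chr2:105399790-105399828, plus strand: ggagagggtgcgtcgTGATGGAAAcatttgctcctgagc
AARS and TARS are listed by RefSeq as AARS1 and TARS1. Among list members with a window, the letters were found in 3 of 15 ATF4 regulators, 5 of 15 amino acid transporters, 6 of 13 cytosolic tRNA synthetases and 0 of 2 serine synthesis genes.

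ATF4 and most genes of its own network rose. Of 19 tested members of a list of ATF4 regulators and feedback genes, 12 rose and 0 fell (background 3.79% and 1.87%), with a median log2 fold change of 1.13, against 0.02 over all genes tested. ATF4 RNA had 300.4, 288, 171 and 179 FPKM in starved cells, against 171, 159, 56.1 and 95.6 FPKM in complete medium. ATF4 rose by 1.04 on the log2 scale (SE 0.13, adjusted p = 0.00867). Every pair was higher without serine and glycine, and the lowest starved library, wild type of batch 2, lay just above the highest complete-medium library, wild type of batch 1. TRIB3, a pseudokinase that binds ATF4 and restrains it, had 82.99, 93.1, 246 and 295 FPKM in starved cells, against 7.66, 11.8, 24.7 and 84.7 FPKM in complete medium. TRIB3 rose by 2.80 on the log2 scale (SE 0.23, adjusted p = 0.00188). CHAC1, which degrades glutathione, had 23.9, 12.7, 76 and 38.8 FPKM in starved cells, against 4.05, 2.83, 3.38 and 6.12 FPKM in complete medium. CHAC1 rose by 2.69 on the log2 scale (SE 0.33, adjusted p = 0.00736). SESN2, a leucine sensor that restrains mTORC1, had 29.1, 12.8, 30.4 and 20.7 FPKM in starved cells, against 5.57, 2.91, 1.82 and 3.27 FPKM in complete medium (log2 fold change 2.46, SE 0.25, adjusted p = 0.00374). For CHAC1 and SESN2, as for ATF4, all 4 starved libraries lay above all 4 complete-medium libraries, and TRIB3 missed this through 1 complete-medium library of batch 2. The transcription factor DDIT3, also known as CHOP, shares its locus with other listed genes and rose (log2 fold change 1.83, SE 0.25, adjusted p = 0.0104), and PPP1R15A, the phosphatase subunit that dephosphorylates eIF2, rose with pair differences of 1.44, 1.41, 1.35 and 1.33 (log2 fold change 1.38, SE 0.10, adjusted p = 0.00136). The C/EBP partners CEBPB (1.30, adjusted p = 0.00549) and CEBPG (1.29, adjusted p = 0.00296), the mTORC1 inhibitor DDIT4 (1.48, adjusted p = 0.0268), the stress cofactor NUPR1 (1.43, adjusted p = 0.0175) and the translation repressor EIF4EBP1 (1.00, adjusted p = 0.00263) rose as well by log2 fold change.

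ATF3 itself rose with pair differences of 0.74, 0.32, 2.03 and 1.42 (log2 fold change 1.13, SE 0.26, adjusted p = 0.0496). The increase was larger in both batch 2 pairs than in batch 1, the smallest was in the batch 1 cells labelled knockout, and the call was kept in 4 of 20 alternative settings. STC2, a secreted glycoprotein of the same list, did not pass the filter, having 0.354, 0.0785, 148 and 406 FPKM in starved cells, against 0.0915, 0.05597, 25.3 and 138 FPKM in complete medium, and was therefore measured in batch 2 alone.

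All 3 enzymes of serine synthesis rose (background 3.79%). PHGDH, which commits 3-phosphoglycerate to serine, had 90.9, 85.9, 79.3 and 51.7 FPKM in starved cells, against 53.2, 60.5, 24.5 and 31.6 FPKM in complete medium. PHGDH rose by 0.90 on the log2 scale (SE 0.18, adjusted p = 0.0323). PSAT1, the aminotransferase of the second step, had 62.9, 52.2, 78.3 and 75.8 FPKM in starved cells, against 18.6, 19.5, 14.4 and 31.9 FPKM in complete medium. PSAT1 rose by 1.67 on the log2 scale (SE 0.18, adjusted p = 0.00438). PSPH, the phosphatase of the last step, had 65.1, 44.6, 81.2 and 44.2 FPKM in starved cells, against 24.3, 24.8, 32.8 and 23.9 FPKM in complete medium. PSPH rose by 1.09 on the log2 scale (SE 0.12, adjusted p = 0.00509). The libraries of the 2 media did not overlap for PSAT1 and PSPH, whereas for PHGDH the batch 2 starved library labelled knockout lay below both batch 1 complete-medium libraries. The wild-type pairs moved further than the pairs labelled knockout in all 3 genes, and the medium by genotype term of none of them was called (adjusted p = 1 for each).

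**Figure D2:**
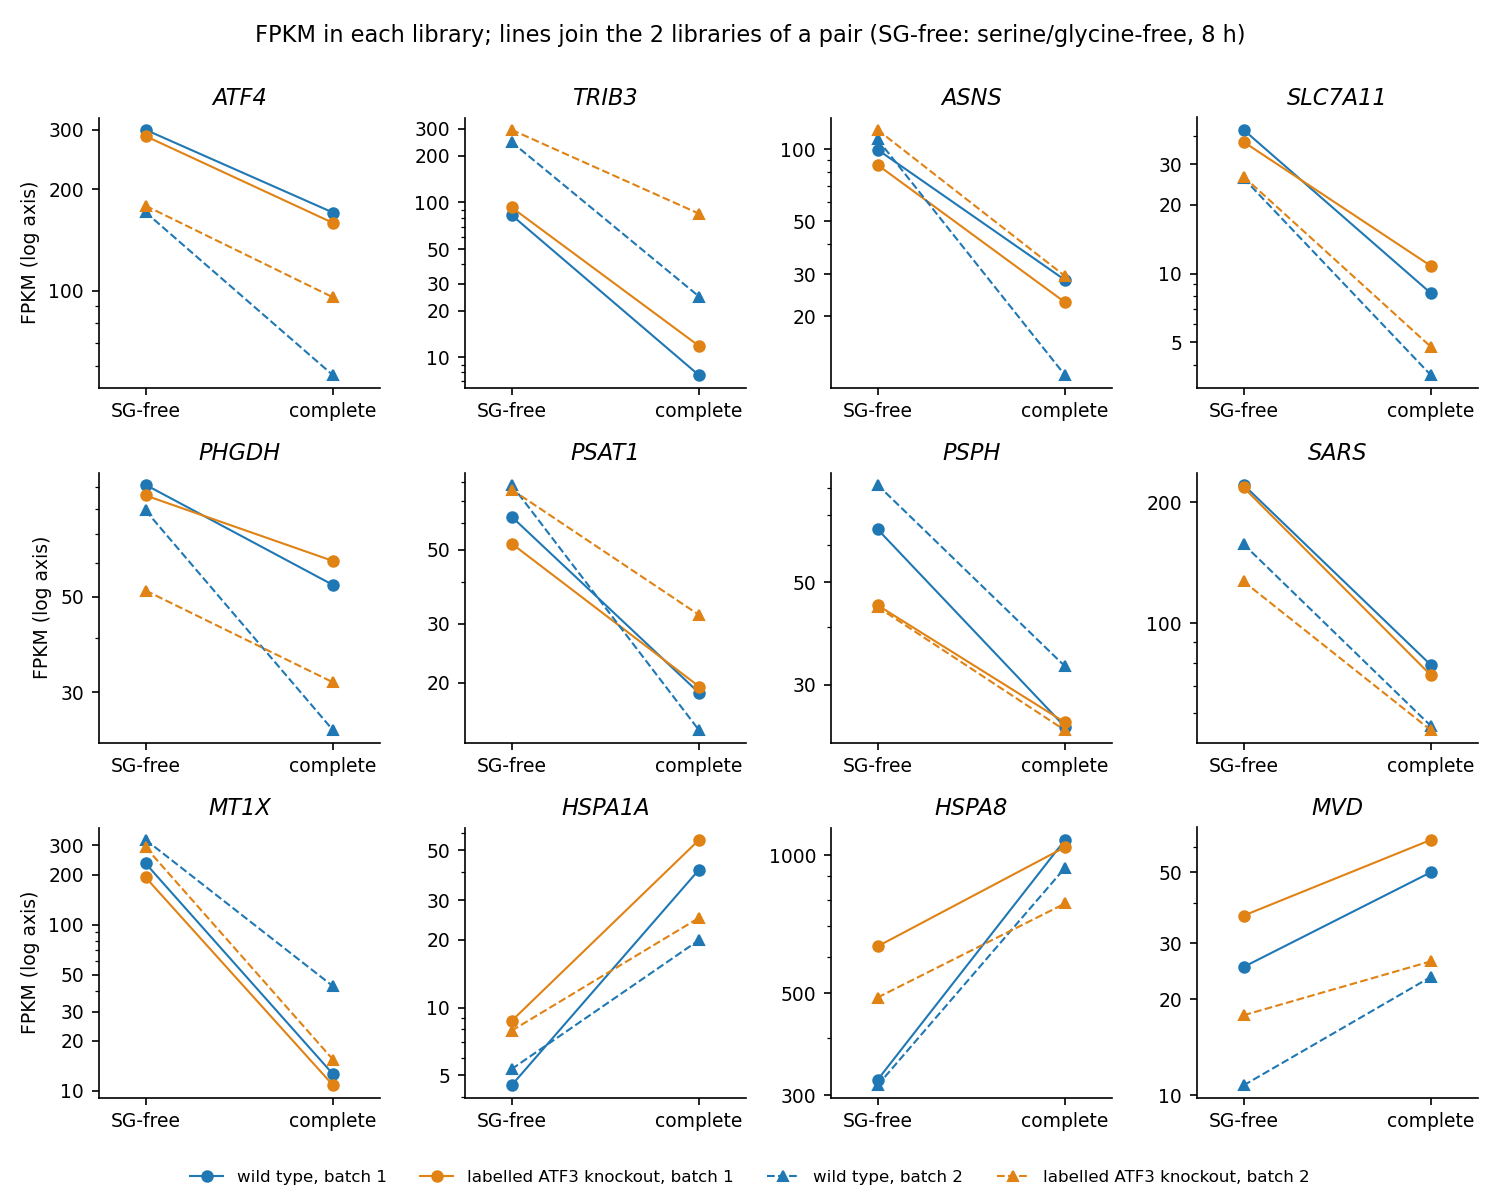
FPKM on a log axis in each of 8 libraries for 12 genes, serine/glycine-free (SG-free) on the left and complete medium on the right of each panel; lines join the libraries of a pair, blue for wild type, orange for cells labelled ATF3 knockout, solid for batch 1 and dashed for batch 2. All 4 lines fall to the right for the ATF4-network, serine synthesis, SARS and MT1X panels and rise to the right for HSPA1A, HSPA8 and MVD.

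Folate one-carbon enzymes changed in a minority of members. Of 18 tested members 5 rose and 1 fell (background 3.79% and 1.87%), with a median log2 fold change of 0.12. MTHFD2, the mitochondrial methylene-tetrahydrofolate dehydrogenase, had 359, 276, 285 and 247 FPKM in starved cells, against 122, 111, 44.04 and 67.97 FPKM in complete medium (log2 fold change 1.84, SE 0.20, adjusted p = 0.00442), with no overlap of the media; its locus is shared with other listed genes. MTHFD1L, the mitochondrial formate-releasing synthetase, rose (log2 fold change 1.09, SE 0.12, adjusted p = 0.00549), as did SHMT2, the mitochondrial serine hydroxymethyltransferase (log2 fold change 0.83, SE 0.13, adjusted p = 0.0164). The smaller increases were in FPGS (0.57, adjusted p = 0.0155), which adds glutamates to folates, and GART (0.50, adjusted p = 0.0203), a purine synthesis enzyme, both log2 fold changes. SHMT1, the cytosolic isoform, instead fell, with 14.1, 17.2, 10.3 and 13.8 FPKM in starved cells, against 22.8, 20.2, 14.99 and 21.7 FPKM in complete medium (log2 fold change −0.50, SE 0.11, adjusted p = 0.0482). The 2 media overlap for SHMT1, and this call was kept in 7 of 21 alternative settings.

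Genes that use serine for cysteine and methyl groups changed in a minority of cases. Of 13 transsulfuration and glutathione genes 3 rose and 0 fell (background 3.79% and 1.87%). The 3 were CTH, which releases cysteine from cystathionine, CBS, which joins serine to homocysteine, and OPLAH, which recycles oxoproline. CTH had 19.4, 6.24, 26.3 and 7.98 FPKM in starved cells, against 3.69, 2.52, 10.6 and 4.66 FPKM in complete medium. CTH rose by 1.26 on the log2 scale (SE 0.22, adjusted p = 0.0243). CBS had 60.3, 63.2, 7.61 and 7.796 FPKM in starved cells, against 33.9, 30.1, 2.05 and 3.13 FPKM in complete medium (log2 fold change 1.11, SE 0.13, adjusted p = 0.00641), with levels several times higher in batch 1 than in batch 2 in both media. OPLAH rose by less (log2 fold change 0.65, SE 0.14, adjusted p = 0.0407). In the list of the methionine cycle and polyamines 2 of 10 rose (background 3.79%), and the list median was 0.13. They were the ornithine decarboxylase ODC1 (0.72, adjusted p = 0.0146) and the methionine synthase reductase MTRR (0.47, adjusted p = 0.0429).

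Most amino acid transporters tested rose. Of 16 tested members 9 rose and 0 fell (background 3.79% and 1.87%), with a median log2 fold change of 0.86. SLC7A11, the cystine-glutamate exchanger, had 42.5, 37.7, 26.1 and 26.6 FPKM in starved cells, against 8.196, 10.8, 3.59 and 4.78 FPKM in complete medium. SLC7A11 rose by 2.19 on the log2 scale (SE 0.15, adjusted p = 0.00136). SLC3A2, its heavy chain partner, had 275, 222, 216 and 284 FPKM in starved cells, against 101, 77.9, 64.4 and 137 FPKM in complete medium. SLC3A2 rose by 1.43 on the log2 scale (SE 0.11, adjusted p = 0.00188). SLC6A9, a glycine transporter, had 7.71, 9.54, 8.52 and 12.2 FPKM in starved cells, against 1.82, 3.78, 2.25 and 5.33 FPKM in complete medium (log2 fold change 1.34, SE 0.15, adjusted p = 0.00552). The media did not overlap for SLC7A11, SLC3A2 or SLC6A9, so the glycine carrier was higher in every starved library than in any complete-medium library. The neutral amino acid exchangers SLC1A4 (log2 fold change 1.35, SE 0.19, adjusted p = 0.0129) and SLC1A5 (log2 fold change 1.30, SE 0.11, adjusted p = 0.00188), both serine carriers, rose too. The remaining called members were the large neutral carrier SLC7A5 (1.55, adjusted p = 0.0131), the cationic carrier SLC7A1 (1.01, adjusted p = 0.0155), the neutral carriers SLC38A1 (0.91, adjusted p = 0.00374) and SLC43A1 (0.81, adjusted p = 0.0179), with log2 fold changes given.

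Enzymes that make other nonessential amino acids rose in 7 of 17 tested cases and fell in 0 (background 3.79% and 1.87%). Their median log2 fold change was 0.34. ASNS, asparagine synthetase (ENSG00000070669, chr7:97481430-97501854 in hg19), had 99.6, 86.02, 110.0 and 121 FPKM in starved cells, against 28.4, 22.9, 11.3 and 29.5 FPKM in complete medium. ASNS rose by 2.20 on the log2 scale (SE 0.22, adjusted p = 0.00359). PCK2, which makes phosphoenolpyruvate in mitochondria, had 37.97, 34.3, 23.02 and 27.96 FPKM in starved cells, against 7.23, 9.55, 3.36 and 6.69 FPKM in complete medium. PCK2 rose by 2.09 on the log2 scale (SE 0.14, adjusted p = 0.00136). Neither gene had overlapping media; ASNS changed most in wild-type cells of batch 2, where its level in complete medium was lowest. The alanine aminotransferase GPT2 (log2 fold change 1.09, SE 0.19, adjusted p = 0.0241) and the aspartate aminotransferase GOT1 (log2 fold change 0.72, SE 0.11, adjusted p = 0.0164) rose by less, and the proline-making reductases PYCRL (0.56, adjusted p = 0.0337) and PYCR1 (0.51, adjusted p = 0.035) by smaller log2 fold changes still.

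Cytosolic and mitochondrial aminoacyl-tRNA synthetases gave different counts. Of 20 cytosolic enzymes 12 rose and 0 fell (background 3.79% and 1.87%), with a median log2 fold change of 0.63. Of 17 mitochondrial enzymes 0 were called, near the 5.66% of all genes tested, with a median of 0.02. The difference between the lists was not tested. SARS, which charges seryl-tRNA (ENSG00000031698, chr1:109756540-109780791 in hg19), had 221, 218, 157 and 127 FPKM in starved cells, against 78.8, 74.3, 55.6 and 54.3 FPKM in complete medium. SARS rose by 1.43 on the log2 scale (SE 0.08, adjusted p = 0.000763). GARS, which charges glycyl-tRNA, had 172, 154, 129.6 and 106 FPKM in starved cells, against 71.8, 77.5, 35.8 and 36.6 FPKM in complete medium (log2 fold change 1.39, SE 0.13, adjusted p = 0.00299). CARS, for cysteine, had 51.99, 39.8, 52.6 and 34.3 FPKM in starved cells, against 25.6, 19.1, 14.9 and 15.1 FPKM in complete medium. CARS rose by 1.22 on the log2 scale (SE 0.14, adjusted p = 0.00549). SARS and GARS, which use the omitted amino acids, had the largest changes of the 20, and the SARS pairs lay close together at 1.48, 1.54, 1.48 and 1.21. WARS (log2 fold change 1.05, SE 0.09, adjusted p = 0.00188) and YARS (log2 fold change 1.02, SE 0.13, adjusted p = 0.00736), the enzymes for tryptophan and tyrosine, followed, and AARS (0.92, adjusted p = 0.00373), TARS (0.82, adjusted p = 0.00253), IARS (0.66, adjusted p = 0.00565), EPRS (0.61, adjusted p = 0.0164) and LARS (0.45, adjusted p = 0.0201) rose by smaller log2 fold changes. XPOT, which exports tRNA from the nucleus and was chosen after its values were seen, had 86.1, 66.9, 78.2 and 71.1 FPKM in starved cells, against 36.99, 39.5, 36.2 and 49.1 FPKM in complete medium. XPOT rose by 0.89 on the log2 scale (SE 0.12, adjusted p = 0.0104).

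The endoplasmic reticulum branch of the stress response moved in single genes. Of 22 tested chaperone and unfolded protein response genes 2 rose and 1 fell (background 3.79% and 1.87%). The median log2 fold change was −0.08. XBP1, the transcription factor of that response, had 109.8, 60.2, 89.3 and 98.1 FPKM in starved cells, against 50.7, 28.3, 31.6 and 48.4 FPKM in complete medium. XBP1 rose by 1.16 on the log2 scale (SE 0.10, adjusted p = 0.00188). HERPUD1, a membrane protein of ER-associated degradation, had 53.6, 33.9, 46.7 and 65.5 FPKM in starved cells, against 21.4, 19.6, 19.03 and 30.2 FPKM in complete medium (log2 fold change 1.10, SE 0.11, adjusted p = 0.00373). SDF2L1, an ER-lumen cochaperone, had 20.4, 17.8, 13.8 and 16.8 FPKM in starved cells, against 31.3, 30.6, 20.9 and 22.4 FPKM in complete medium. SDF2L1 fell by 0.58 on the log2 scale (SE 0.10, adjusted p = 0.0229). XBP1 and HERPUD1 were thus higher in every pair while SDF2L1 was lower in every pair. In the list of eIF2 pathway genes and translation brakes 2 of 20 rose (background 3.79%), both initiation factors. These were EIF2S2 (0.79, adjusted p = 0.00894), the beta subunit of eIF2, and EIF2A (0.35, adjusted p = 0.039).

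**Figure D3:**
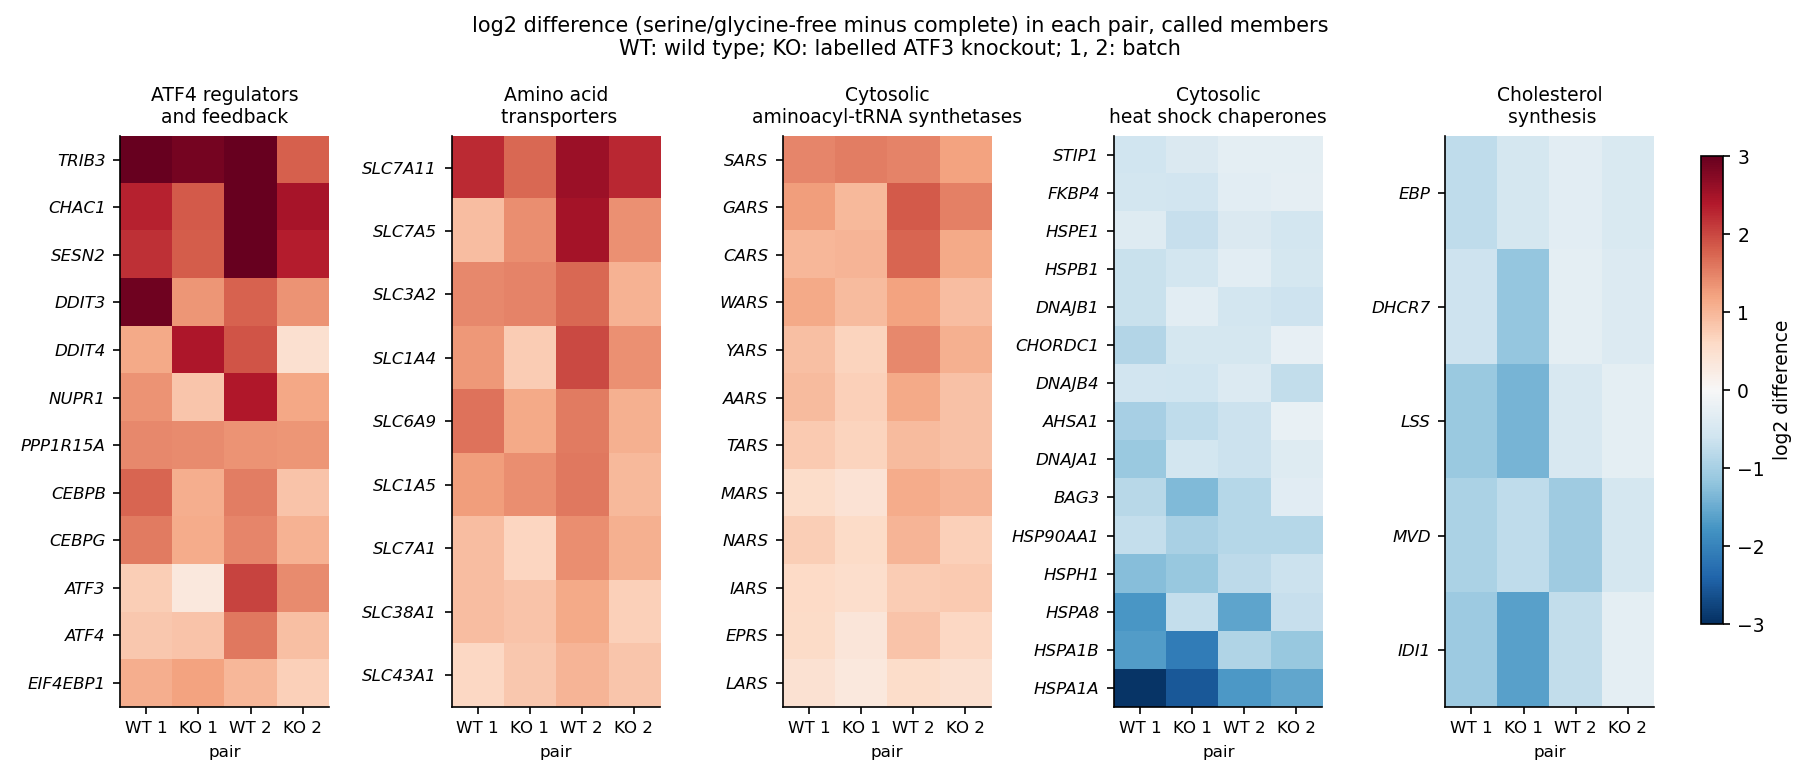
Each tile is the log2 difference, serine/glycine-free minus complete medium, of 1 called gene in 1 pair (columns: wild type and labelled knockout, batch 1 then batch 2), red for higher and blue for lower, with colours saturating at 3 and −3. Rows of the ATF4, transporter and tRNA synthetase lists are red in all 4 pairs and rows of the heat shock and cholesterol lists are blue in all 4, with 5 of the 7 called cholesterol genes drawn.

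Most heat shock chaperones of a mainly cytosolic list, which also holds the mitochondrial HSPE1, fell. Of 19 tested members 15 fell and 0 rose (background 1.87% and 3.79%), with a median log2 fold change of −0.54, and pair medians of −0.66, −0.60, −0.52 and −0.53. HSPA1A, the stress-inducible HSP70 (ENSG00000204389, chr6:31777396-31785723 in hg19), had 4.51, 8.72, 5.32 and 7.89 FPKM in starved cells, against 41.1, 55.7, 19.97 and 25.1 FPKM in complete medium. HSPA1A fell by 2.19 on the log2 scale (SE 0.23, adjusted p = 0.00406). Its near-identical neighbour HSPA1B had 4.49, 4.49, 4.99 and 6.67 FPKM in starved cells, against 16.6, 22.5, 10.3 and 15.7 FPKM in complete medium (log2 fold change −1.45, SE 0.20, adjusted p = 0.0111); reads of these copies may have been split between them, so their separate levels are uncertain. HSPA8, the constitutive HSC70, had 324, 632, 315 and 489 FPKM in starved cells, against 1079.5, 1041, 938 and 784 FPKM in complete medium. HSPA8 fell by 1.18 on the log2 scale (SE 0.18, adjusted p = 0.0164). In all 3 genes every starved library lay below every complete-medium library. HSP90AA1, the inducible HSP90, had 48.1, 59.4, 77.03 and 95.5 FPKM in starved cells, against 79.3, 118, 140.4 and 175 FPKM in complete medium (log2 fold change −0.85, SE 0.07, adjusted p = 0.00227), HSPH1, an HSP110 exchange factor, had 21.1, 24.6, 22.9 and 24.6 FPKM in starved cells, against 52.9, 55.3, 39.9 and 38.98 FPKM in complete medium (log2 fold change −0.96, SE 0.12, adjusted p = 0.00868), and both were lower in each of the 4 pairs. The cochaperones BAG3 (−0.85, adjusted p = 0.039), DNAJA1 (−0.68, adjusted p = 0.0229), DNAJB1 (−0.54, adjusted p = 0.0181) and the mitochondrial HSPE1 (−0.51, adjusted p = 0.0151) fell by log2 fold changes under 1.

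Heat shock letters stand in the promoters of HSPA8, HSP90AA1 and DNAJA1, and these are shown since all 3 genes fell; capitals mark GAANNTTCNNGAA or TTCNNGAANNTTC, and the HSPA8 window, 300 bases in the direction of the gene, holds 2.
HSPA8, chr11:123062087-123062386, minus strand: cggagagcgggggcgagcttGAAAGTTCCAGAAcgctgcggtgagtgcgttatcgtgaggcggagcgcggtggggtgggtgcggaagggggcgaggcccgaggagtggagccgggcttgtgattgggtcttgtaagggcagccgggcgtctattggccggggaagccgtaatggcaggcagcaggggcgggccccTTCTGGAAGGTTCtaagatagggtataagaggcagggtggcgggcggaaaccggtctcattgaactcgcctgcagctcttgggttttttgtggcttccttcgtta
HSP90AA1, chr14:102087105-102087147, minus strand: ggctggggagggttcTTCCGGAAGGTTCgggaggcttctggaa
DNAJA1, chr9:33025261-33025303, plus strand: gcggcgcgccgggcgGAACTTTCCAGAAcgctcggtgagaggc
In that list 6 of 18 members with a window held the letters: these 3, CHORDC1, HSP90AB1 and HSPD1. HSP90AB1 and HSPD1 were not called. HSPA1A, HSPA1B and HSPH1, which fell by more than HSP90AA1 and DNAJA1, were not among the 6. Only exact letters within the windows were counted, and not every tested member had a window. Absence from the 6 thus does not show that a promoter lacks binding sites for heat shock factor.

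Some genes chosen after their values were seen moved the other way from the heat shock chaperones that fell. CIRBP, a cold-inducible RNA-binding protein, had 99.4, 105, 118 and 98.9 FPKM in starved cells, against 41.5, 48.9, 60.97 and 50.9 FPKM in complete medium (log2 fold change 1.05, SE 0.08, adjusted p = 0.00188). RBM3, a related cold-inducible protein, had 198, 222, 249 and 249 FPKM in starved cells, against 139.5, 136, 170.2 and 151 FPKM in complete medium. RBM3 rose by 0.62 on the log2 scale (SE 0.07, adjusted p = 0.0056). Of HSP70 relatives in other compartments, mitochondrial HSPA9 (log2 fold change 0.64, SE 0.07, adjusted p = 0.0051) and HSPA13 (log2 fold change 0.69, SE 0.11, adjusted p = 0.0171), a microsomal member, also rose. They do not stand for all such relatives, as HSPA5, an ER member, was called in neither direction. CIRBP was higher in every starved library than in any complete-medium library.

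Metallothioneins, small cysteine-rich proteins that bind zinc and copper, had the largest increases of all tested genes. Of 6 tested genes of metal handling 4 rose and 1 fell (background 3.79% and 1.87%), with a median log2 fold change of 1.18. MT1X (ENSG00000187193, chr16:56716336-56721964 in hg19) had 233, 192, 324 and 292 FPKM in starved cells, against 12.6, 10.8, 42.5 and 15.4 FPKM in complete medium. MT1X rose by 3.80 on the log2 scale (SE 0.20, adjusted p = 0.000763). MT2A (ENSG00000125148, chr16:56642111-56643409) had 1058, 1065, 1143 and 774 FPKM in starved cells, against 104, 78.2, 337 and 76.5 FPKM in complete medium. MT2A rose by 3.04 on the log2 scale (SE 0.28, adjusted p = 0.0028). Both were higher in all starved libraries than in any complete-medium library. The zinc exporter SLC30A1 had 18.1, 15.7, 12.1 and 20.2 FPKM in starved cells, against 6.18, 7.22, 1.98 and 2.73 FPKM in complete medium (log2 fold change 1.77, SE 0.24, adjusted p = 0.0104), and the zinc importer SLC39A10 went the other way, with 16.5, 16.5, 9.81 and 10.2 FPKM in starved cells, against 28.9, 27.3, 21.1 and 25.9 FPKM in complete medium (log2 fold change −0.94, SE 0.12, adjusted p = 0.00941). SLC39A14, another importer, rose (log2 fold change 0.59, SE 0.10, adjusted p = 0.0179).

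Other metallothioneins were high in 1 batch alone and did not pass the filter. MT1E had 1706, 1195, 3.13 and 0.965 FPKM in starved cells, against 69.99, 51.7, 0.949 and 0 FPKM in complete medium. MT1F had 0, 0, 63.3 and 63.6 FPKM in starved cells, against 0, 0, 8.51 and 8.78 FPKM in complete medium. MT1M had 0, 0.402, 59.4 and 22.5 FPKM in starved cells, against 0.4200, 0, 1.78 and 0 FPKM in complete medium. In the batch where each was high, its starved libraries were higher than their partners. The metallothionein genes are near-identical copies whose reads the counting may have split.

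The promoters of MT2A and MT1X are shown because these genes changed most; capitals mark TGCACNC or TGCGCNC on either strand, with 8 matches in MT2A and 4 in MT1X.
MT2A, chr16:56608334-56608633, plus strand: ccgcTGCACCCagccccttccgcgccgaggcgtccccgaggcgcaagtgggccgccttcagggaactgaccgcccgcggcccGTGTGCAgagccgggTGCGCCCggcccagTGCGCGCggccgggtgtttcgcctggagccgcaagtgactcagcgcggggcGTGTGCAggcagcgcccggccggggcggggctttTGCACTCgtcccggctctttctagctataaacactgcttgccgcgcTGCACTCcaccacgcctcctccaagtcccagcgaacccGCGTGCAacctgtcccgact
MT1X, chr16:56682220-56682519, plus strand: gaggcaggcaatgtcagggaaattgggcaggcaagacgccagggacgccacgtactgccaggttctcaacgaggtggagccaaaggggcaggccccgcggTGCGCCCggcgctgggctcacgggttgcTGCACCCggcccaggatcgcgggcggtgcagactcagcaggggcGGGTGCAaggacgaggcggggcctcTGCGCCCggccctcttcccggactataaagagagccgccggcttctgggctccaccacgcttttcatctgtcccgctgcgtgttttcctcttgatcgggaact

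A minority of sterol synthesis genes was called lower. Of 24 tested members 7 fell, 0 rose (background 1.87% and 3.79%) and 17 were not called, with a median log2 fold change of −0.61. In all 4 pairs 13 of the 24 were lower and 0 higher, against 13.7% and 19.2% of all genes tested. The pair medians were −0.85 and −1.12 in batch 1 and −0.23 and −0.18 in batch 2. MVD, mevalonate diphosphate decarboxylase, had 25.3, 36.6, 10.8 and 17.8 FPKM in starved cells, against 50.1, 63.2, 23.5 and 26.3 FPKM in complete medium. MVD fell by 0.83 on the log2 scale (SE 0.11, adjusted p = 0.00941). IDI1, isopentenyl diphosphate isomerase, had 7.67, 5.07, 9.04 and 15.7 FPKM in starved cells, against 17.5, 17.7, 15.8 and 19.6 FPKM in complete medium. IDI1 fell by 0.94 on the log2 scale (SE 0.20, adjusted p = 0.042). MVD had pair differences of −0.96, −0.77, −1.06 and −0.54, and IDI1 fell mainly in batch 1, with pair differences of −1.09, −1.62, −0.74 and −0.30. The cyclase LSS (−0.82, adjusted p = 0.048), the reductase DHCR7 (−0.63, adjusted p = 0.0474) and the isomerase EBP (−0.51, adjusted p = 0.0213) fell too, with log2 fold changes given.

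In fatty acid synthesis 3 of 14 tested genes fell and 1 rose (background 1.87% and 3.79%), with a median log2 fold change of −0.28. FASN, fatty acid synthase, had 12.5, 38.8, 4.29 and 9.33 FPKM in starved cells, against 23.2, 64.6, 8.68 and 15.3 FPKM in complete medium (log2 fold change −0.77, SE 0.10, adjusted p = 0.00938). The desaturases SCD (log2 fold change −0.69, SE 0.14, adjusted p = 0.0384) and FADS2 (log2 fold change −0.54, SE 0.08, adjusted p = 0.0158) fell, and MID1IP1, which promotes polymerisation of acetyl-CoA carboxylase, rose instead, with 19.6, 15.8, 25.6 and 52.5 FPKM in starved cells, against 9.46, 9.23, 9.84 and 34.2 FPKM in complete medium. MID1IP1 rose by 0.90 on the log2 scale (SE 0.13, adjusted p = 0.0146). FASN was lower in each pair, and its level in complete medium varied more between cultures than the change did. Of 17 genes for sphingolipid and phosphatidylserine synthesis, which draws on serine, 1 was called, near the 5.66% of all genes tested. This gene, KDSR, the second enzyme of sphingoid base synthesis, had 19.3, 17.6, 12.5 and 14.6 FPKM in starved cells, against 9.900, 8.82, 5.95 and 11.1 FPKM in complete medium. KDSR rose by 0.79 on the log2 scale (SE 0.14, adjusted p = 0.0228).

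Hypoxia-responsive genes leaned lower, with 3 of 17 called lower and 0 higher (background 1.87% and 3.79%). The median log2 fold change was −0.43 (pair medians −0.14 and −0.11 in batch 1, −0.51 and −0.67 in batch 2). In all 4 pairs 10 of the 17 were lower and 0 higher, against 13.7% and 19.2% of all genes tested. PFKFB4, which sets fructose 2,6-bisphosphate, had 6.52, 2.704, 10.1 and 5.89 FPKM in starved cells, against 19.2, 7.696, 34 and 24.1 FPKM in complete medium. PFKFB4 fell by 1.55 on the log2 scale (SE 0.14, adjusted p = 0.00253). BNIP3, a mitophagy receptor, had 14.6, 3.89, 68.6 and 52.1 FPKM in starved cells, against 27.1, 5.88, 123 and 87.5 FPKM in complete medium (log2 fold change −0.73, SE 0.10, adjusted p = 0.00981). INSIG2, which retains the sterol sensor SCAP in the ER, fell as well (log2 fold change −0.79, SE 0.12, adjusted p = 0.0162). Each of these genes was lower in all 4 pairs, with levels that differed between the cultures. Of 20 glycolysis genes 1 was called, near the 5.66% of all genes tested. This gene, the enolase ENO2, had 20.6, 12.99, 17.5 and 5.83 FPKM in starved cells, against 44.4, 24.03, 26.2 and 13.3 FPKM in complete medium. ENO2 fell by 0.89 on the log2 scale (SE 0.12, adjusted p = 0.0105). Among 13 proteins encoded by mitochondrial DNA 2 fell, MT-ND4L (−0.63, adjusted p = 0.0219) and MT-ATP6 (−0.57, adjusted p = 0.0425), and 0 rose (background 1.87% and 3.79%). The median log2 fold change was −0.32. In all 4 pairs 9 of the 13 were lower and 0 higher, against 13.7% and 19.2% of all genes tested.

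Ribosome biogenesis factors were called higher in a minority of members. Of 29 MYC-linked and ribosome biogenesis genes 7 rose and 0 fell (background 3.79% and 1.87%), with a median log2 fold change of 0.34. In all 4 pairs 21 of the 29 were higher and 0 lower, against 19.2% and 13.7% of all genes tested. WDR43, a nucleolar factor of early ribosomal RNA processing, had 105, 63.1, 81.3 and 71.5 FPKM in starved cells, against 55.04, 32.3, 39.3 and 34.8 FPKM in complete medium. WDR43 rose by 0.98 on the log2 scale (SE 0.07, adjusted p = 0.00188). DDX21, a nucleolar RNA helicase, had 109, 112, 105 and 105 FPKM in starved cells, against 63.02, 59.1, 60.1 and 60.01 FPKM in complete medium. DDX21 rose by 0.82 on the log2 scale (SE 0.07, adjusted p = 0.00203). RRP12 (log2 fold change 1.04, SE 0.12, adjusted p = 0.00555), a ribosome export factor, DKC1 (log2 fold change 0.67, SE 0.08, adjusted p = 0.00552), the pseudouridine synthase, NOP58 (0.51, adjusted p = 0.0143), POLR1B (0.40, adjusted p = 0.0465) and NCL (0.32, adjusted p = 0.045) rose too. All these were higher in each pair. Of 77 cytosolic ribosomal protein genes 2 rose, RPL4 (0.34, adjusted p = 0.0425) and RPL10A (0.33, adjusted p = 0.0369), near the 3.79% of all tested genes. In all 4 pairs, however, 32 of the 77 were higher and 0 lower, with a median log2 fold change of 0.11. The pair medians were 0.195 and 0.163 in batch 1, and 0.064 and 0.018 in batch 2. Over all genes tested they were 0.004 and −0.007 in batch 1, and 0.056 and 0.045 in batch 2. The list thus lay above all genes in batch 1 and close to them in batch 2.

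Of 35 DNA replication and nucleotide synthesis genes 3 fell, with a median log2 fold change of −0.17. Of 28 mitosis genes 4 fell, with a median of −0.12. In neither list did a gene rise (background 1.87% lower and 3.79% higher). In all 4 pairs 16 of the 35 were lower and 3 higher. For the 28 mitosis genes these counts were 12 and 1, against 13.7% and 19.2% of all genes tested. The pair medians of the mitosis genes were −0.12 and −0.29 in batch 1, and 0.07 and −0.12 in batch 2, so the wild-type pair of batch 2 went the other way. ORC1, the largest subunit of the origin recognition complex, had 10.2, 10.2, 2.85 and 1.86 FPKM in starved cells, against 14.7, 15.2, 7.09 and 4.53 FPKM in complete medium (log2 fold change −0.76, SE 0.15, adjusted p = 0.0336). FEN1, the flap endonuclease, fell (log2 fold change −0.50, SE 0.09, adjusted p = 0.0282), as did MCM4 (−0.35, adjusted p = 0.0392), a helicase subunit. In mitosis the members were the motor KIF20A (log2 fold change −0.55, SE 0.09, adjusted p = 0.0219), the anaphase activator CDC20 (log2 fold change −0.49, SE 0.08, adjusted p = 0.0179), MKI67 (−0.56, adjusted p = 0.0429) and DLGAP5 (−0.37, adjusted p = 0.0451). Chosen after their values were seen, the phosphatase CDC25A had 13.9, 16.1, 10.1 and 7.28 FPKM in starved cells, against 23.2, 20.9, 17.5 and 13.1 FPKM in complete medium (log2 fold change −0.64, SE 0.12, adjusted p = 0.0255), and SKP2, which targets the inhibitor p27 for degradation, fell (log2 fold change −0.81, SE 0.12, adjusted p = 0.0155). CDKN1A, which encodes the cell cycle inhibitor p21, rose with 123, 75.2, 29.9 and 89.9 FPKM in starved cells, against 94.02, 47.1, 8.61 and 37.2 FPKM in complete medium. CDKN1A rose by 1.00 on the log2 scale (SE 0.20, adjusted p = 0.0334).

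CDKN1A belongs to a list of p53 targets in which 3 of 19 rose (background 3.79%), with a list median of 0.12. The others were GADD45A (0.99, adjusted p = 0.00442), a growth arrest factor, and TNFRSF10B (0.65, adjusted p = 0.039), a death receptor. Of 15 immediate early genes 3 rose (background 3.79%): DUSP5, an ERK phosphatase, MYC and IER2. MYC had 109.8, 120.3, 72.1 and 119 FPKM in starved cells, against 34.7, 48.6, 46.8 and 95.5 FPKM in complete medium. MYC rose by 0.96 on the log2 scale (SE 0.20, adjusted p = 0.039). DUSP5 (log2 fold change 1.09, SE 0.23, adjusted p = 0.0414) and IER2 (log2 fold change 0.48, SE 0.11, adjusted p = 0.0478) were called as well; their calls and that of MYC were kept in 7, 4 and 7 of the alternative settings.

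Inflammatory and secreted genes were called higher in a minority of tested members. Of 13 tested NF-kappaB and inflammatory genes 3 rose (background 3.79%), with a median log2 fold change of 0.33. LIF, a cytokine of the interleukin 6 family, had 9.78, 23.1, 96.3 and 37.2 FPKM in starved cells, against 5.44, 10.6, 47.4 and 22.3 FPKM in complete medium. LIF rose by 0.88 on the log2 scale (SE 0.10, adjusted p = 0.0061). The NF-kappaB subunits NFKB2 (log2 fold change 0.89, SE 0.11, adjusted p = 0.00868) and RELB (log2 fold change 0.75, SE 0.12, adjusted p = 0.0191) rose. IL8 had 2.89, 2.02, 1356 and 1849 FPKM in starved cells, against 0.475, 0.5498, 191 and 659 FPKM in complete medium, and IL6 had 0.772, 0.269, 53.8 and 361 FPKM in starved cells, against 0, 0.195, 3.52 and 46.9 FPKM in complete medium, so both were high in batch 2 alone and were not tested; each was higher without serine and glycine in both batch 2 pairs. Of 7 secreted stress factors 3 rose (background 3.79%), with a median of 0.91. GDF15, a stress hormone, had 19.4, 18.3, 31.2 and 55.4 FPKM in starved cells, against 2.16, 2.85, 11.2 and 41.8 FPKM in complete medium (log2 fold change 1.70, SE 0.33, adjusted p = 0.0331). VEGFA, an angiogenic factor, rose (log2 fold change 0.91, SE 0.16, adjusted p = 0.0229), as did TGFA, a ligand of the EGF receptor (log2 fold change 0.62, SE 0.14, adjusted p = 0.0438).

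Other genes with large changes fall in none of these groups. FHL2, a LIM-domain cofactor, had 117, 77.8, 93.3 and 78.97 FPKM in starved cells, against 56.2, 31.5, 37.8 and 36.1 FPKM in complete medium. FHL2 rose by 1.18 on the log2 scale (SE 0.08, adjusted p = 0.00136). AMIGO2, an adhesion protein, had 189, 152, 77.8 and 136 FPKM in starved cells, against 93.8, 73.99, 5.23 and 52.8 FPKM in complete medium (log2 fold change 1.76, SE 0.40, adjusted p = 0.0482); its wild-type batch 2 pair moved most, by 3.66. UAP1, which makes UDP-N-acetylglucosamine, had 109, 138, 202 and 156 FPKM in starved cells, against 38.9, 29.4, 82.2 and 45.6 FPKM in complete medium (log2 fold change 1.67, SE 0.14, adjusted p = 0.00188), and GNPNAT1, an earlier enzyme of the same pathway, rose (log2 fold change 0.60, SE 0.08, adjusted p = 0.012); both were chosen after their values were seen. The same holds for the laminin chain LAMB3 (log2 fold change 0.85, SE 0.10, adjusted p = 0.00616), which rose. In matrix genes the collagen IV chain COL4A1 was the 1 of 11 tested members to rise (log2 fold change 0.84, SE 0.19, adjusted p = 0.0482). The background was 3.79%.

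Among the decreases, CLDN4, a tight junction claudin, had 6.24, 8.602, 55.5 and 90.8 FPKM in starved cells, against 15.3, 20.97, 135 and 171 FPKM in complete medium. CLDN4 fell by 1.14 on the log2 scale (SE 0.09, adjusted p = 0.00188). It was lower in each pair, while its level was several times higher in batch 2 than in batch 1. FAM111B, a protease linked to replication, had 10.3, 5.47, 3.78 and 6.67 FPKM in starved cells, against 20.3, 17.5, 10.5 and 14.1 FPKM in complete medium. FAM111B fell by 1.17 on the log2 scale (SE 0.14, adjusted p = 0.0069). FUT11, a fucosyltransferase, had 10.4, 10.6, 42.9 and 26.8 FPKM in starved cells, against 15.5, 15.1, 119.6 and 81.2 FPKM in complete medium (log2 fold change −1.01, SE 0.20, adjusted p = 0.0336). SNORD83A, a small nucleolar RNA, fell (log2 fold change −1.07, SE 0.12, adjusted p = 0.00549); as a short RNA within a host gene its FPKM is uncertain.

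Several lists showed no or few calls. None of 19 NRF2 targets, 21 autophagy and lysosome genes or 12 interferon-stimulated genes was called by limma, with median log2 fold changes of 0.06, 0.16 and −0.02. As 5.66% of all genes tested were called, lists of this size would hold few calls in any case. Of 11 FOXO and MondoA targets 1 rose, TSC22D3 (log2 fold change 1.15, SE 0.17, adjusted p = 0.0155), a leucine zipper protein. Of 13 TGF-beta and YAP targets 2 rose, among them SKIL, a Smad corepressor (log2 fold change 0.53, SE 0.11, adjusted p = 0.0425). That list moved in opposite directions in the batches, with pair medians of −0.21 and −0.42 in batch 1 and 0.88 and 1.02 in batch 2.

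**Figure D4:**
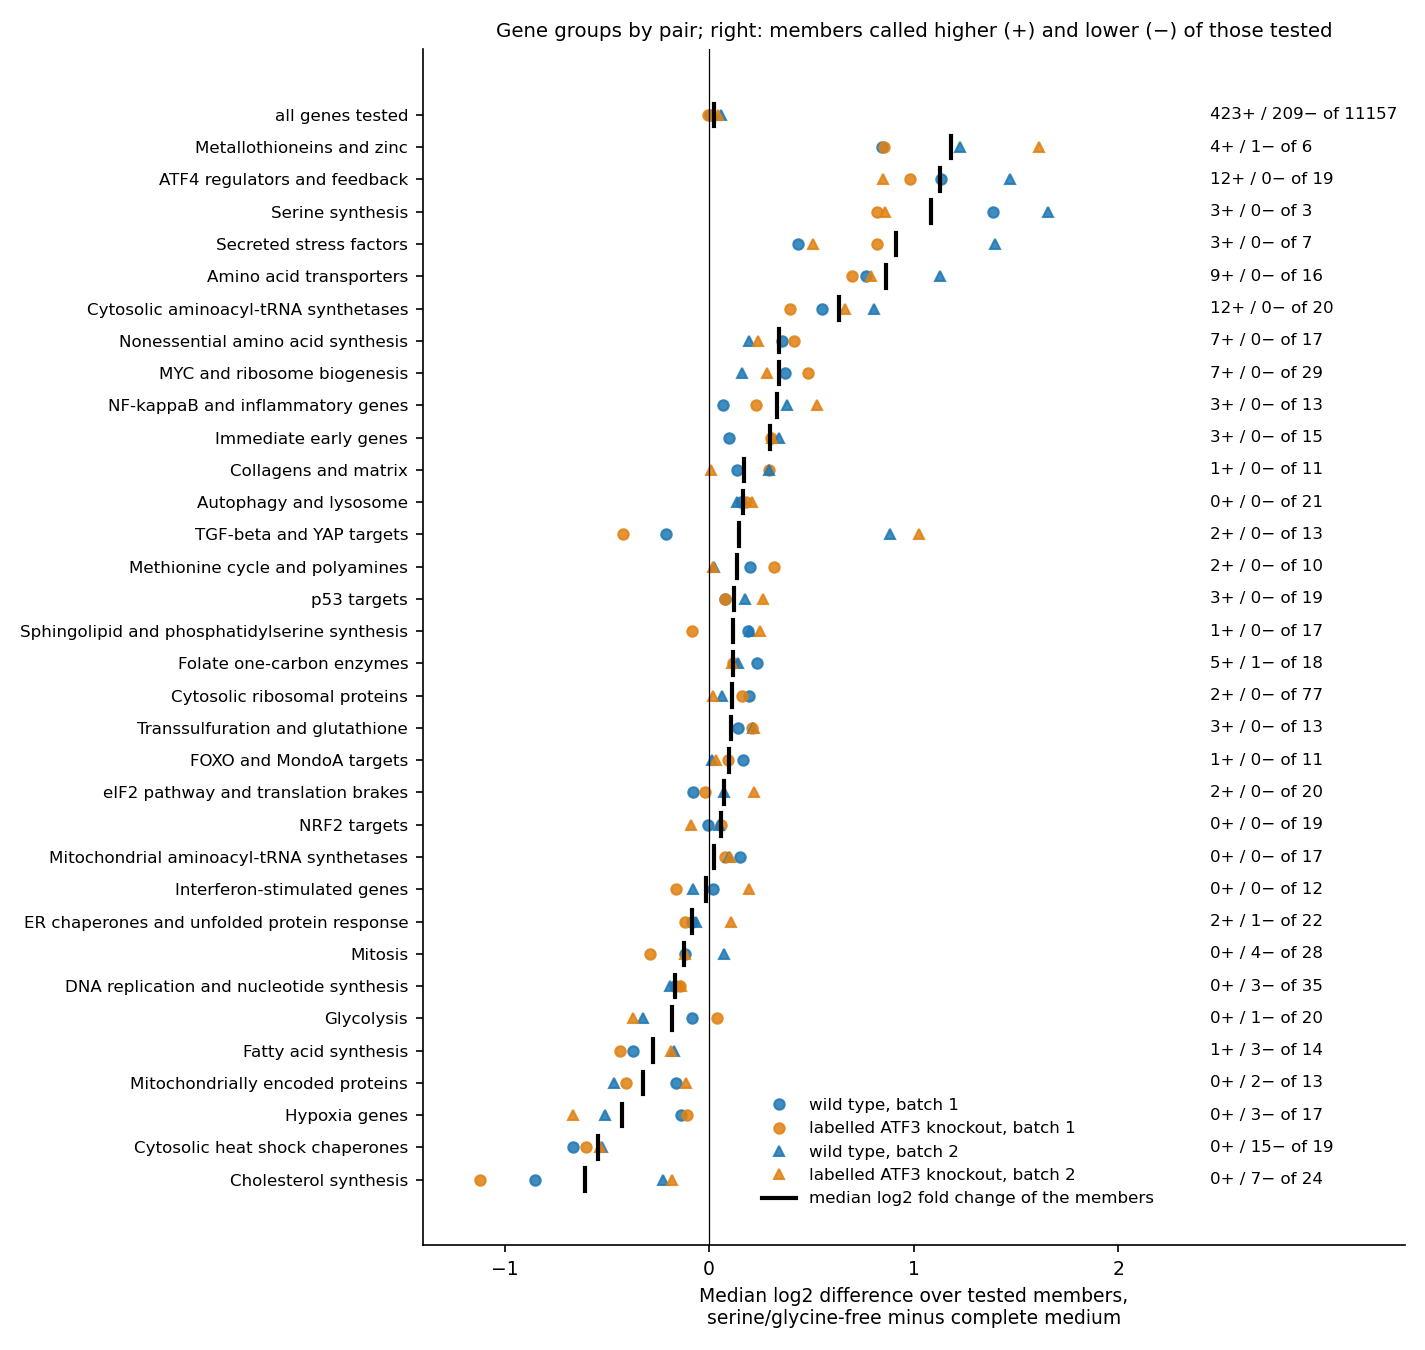
Median log2 difference, serine/glycine-free minus complete medium, over the tested members of each gene group, with 1 point per pair (circles batch 1, triangles batch 2; blue wild type, orange labelled ATF3 knockout) and a black bar at the median log2 fold change; the right side counts members called higher and lower. The ATF4, serine synthesis, transporter and cytosolic tRNA synthetase groups lie right of 0 in all 4 pairs and the heat shock and cholesterol groups left of it, while TGF-beta and YAP targets split by batch.

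The response was measured as more alike within a batch than across batches. Across the 11157 genes, which are not independent replicates, log2 differences of 2 pairs correlated at 0.46 and 0.49 within a batch, 0.35 and 0.25 within a genotype label, and 0.26 and 0.33 for pairs that share neither. The p-values treat the 4 pairs as independent although they come from 2 experiments. The medium by batch term was called for 1 gene (0.00896%), with 1328 genes at an unadjusted p under 0.05 (11.9%), and for 0 to 40 genes over the alternative settings. That gene is NDRG1, a stress-responsive differentiation gene, which had 65.1, 42.7, 53.1 and 144 FPKM in starved cells, against 56.7, 34.7, 173 and 503 FPKM in complete medium. It was higher without serine and glycine in both batch 1 pairs and lower in both batch 2 pairs (batch 2 minus batch 1 −1.98 on the log2 scale, adjusted p = 0.013 by limma), a call lost without the wild type pair of batch 2. The medium by genotype term was called for 0 genes by limma, with 299 at an unadjusted p under 0.05 (2.68%) and 7 called under the wider filter, so none of the changes described was shown to differ between wild type and cells labelled ATF3 knockout, and with 2 residual degrees of freedom this does not show that they act alike. Within batch 1 alone 306 genes rose and 204 fell, and within batch 2 alone 384 rose and 125 fell; 189 and 87, and 211 and 54, of these were among the calls over all pairs.

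**Figure D5:**
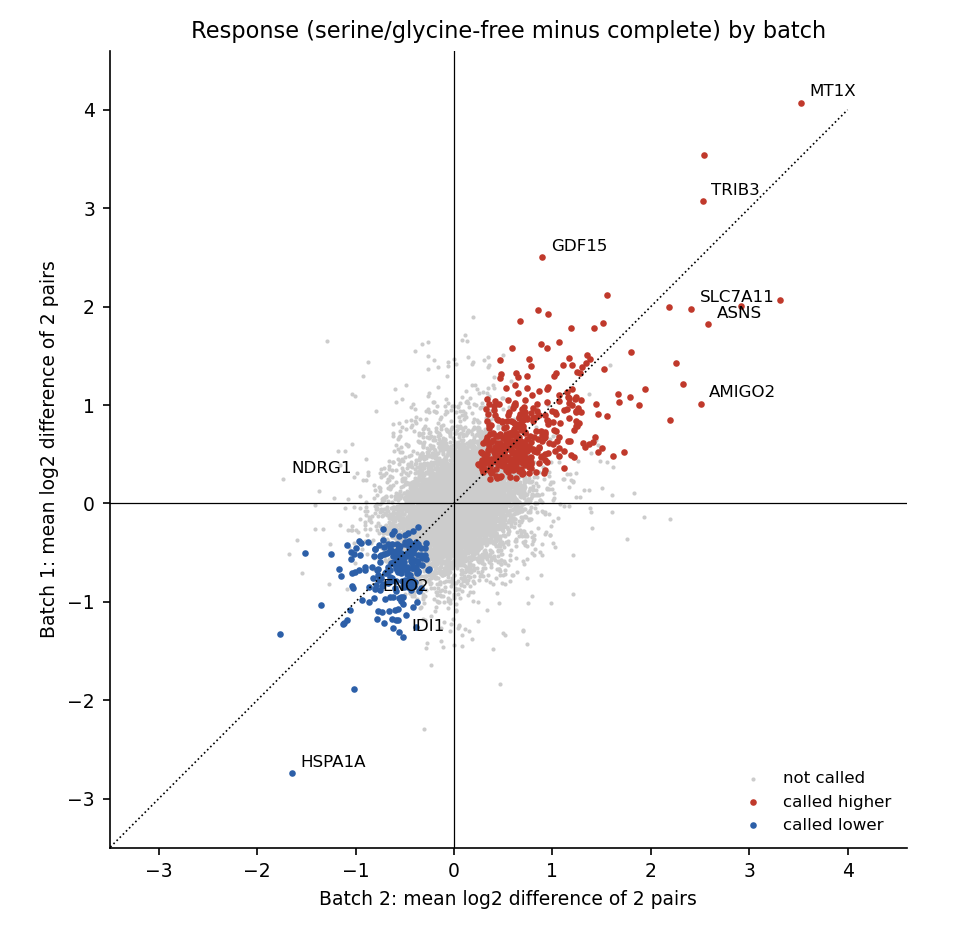
Each point is 1 of 11157 genes, with the mean log2 difference (serine/glycine-free minus complete medium) of the 2 pairs of batch 2 on the x axis and of batch 1 on the y axis; the dotted line marks equal values. Called genes lie in the upper right and lower left; GDF15 (2.51 in batch 1, 0.90 in batch 2) lies above the line, AMIGO2 (1.01 and 2.51) below it, and NDRG1 at 0.24 and −1.74 in the upper left.

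Some genes outside the filter also separated the media. Counting genes at 1 FPKM or more in all 4 libraries of 1 medium and under 1 FPKM in all 4 of the other, 9 were found in serine/glycine-free medium alone, 3 of them protein-coding (INHBE, PCED1B and ZNF682), and 4 in complete medium alone, 2 of them protein-coding (NBEA and TET1). INHBE, a secreted inhibin subunit, had 2.37, 1.802, 1.37 and 1.12 FPKM in starved cells, against 0.334, 0.552, 0 and 0.242 FPKM in complete medium. These genes were selected by their values and were not tested.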

How the data were processed

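RNA was sequenced from 8 cultures of hTERT-RPE1 cells with libraries made by Illumina protocols, per the labels' protocols. For each of the 2 batches the authors deposited a table of FPKM values for 57884 genes in 4 libraries. TopHat, Cufflinks, Cuffdiff and hg19 are named in the submitters' processing notes; no version or setting is given in the sources used. All columns of per-sample values were used. FPKM is not a count, depth is unknown, and a listed 0 can be a failed estimate. Reads of overlapping genes (69.6% of tested genes share a locus) and of near-identical copies may have been split.

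Groups came from sample titles. Genes with FPKM of at least 1 in all 8 libraries were tested on log2(FPKM + 1), and changes of low genes are understated for that reason. The fit, in limma 3.58.1 under R 4.3.3, had 4 pair terms and medium, with a trended prior (3 residual and 4.73 prior degrees of freedom), two-sided p-values and Benjamini-Hochberg adjustment over 11157 genes (threshold 0.05). The tables were normalized separately, so each pair was compared within its table. The pairing comes from the series text; deviations of the 2 libraries of a pair from their medium's mean correlated at 0.795 to 0.844. Medium by genotype and medium by batch terms were fitted in the same way. The steps were tested on simulated data. Lists have counts and medians and no test of their own.

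The comparison, members and gene lists were chosen with earlier results of these data known. Named genes are ATF3, the 12 largest changes and the 6 smallest p-values per direction (mean FPKM of 5 or more), the serine synthesis genes, up to 5 members per list by p, members called against their list's median, and genes called in an interaction term. Of the 186 genes so named, the text gives those that were called, and NDRG1; some are not reported here. Further list members with values (ATF4, DDIT4, NUPR1, CEBPB, SLC7A5, SLC1A4, SLC7A1, SLC43A1, PYCR1, CARS, YARS, IARS, EPRS, LARS, BAG3, DNAJA1, DNAJB1, LSS, POLR1B, NCL), genes under the filter and the metal-response and heat shock letters were chosen after values were seen. Gene types are from GENCODE 29 by Ensembl ID (98% of tested genes) and promoters from RefSeq (GRCh38.p14). Other settings were tried for the filter, pseudocount, scaling, block, prior, gene set and pairs. Replicates are separate samples of a group. The p-values of the medium effect measure how far the differences within pairs scatter from pair to pair, moderated by the prior. They do not measure the spread between the samples of a group. Tables were handled in Python 3.11.15 with pandas 2.3.3.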

Additional observations from a re-analysis of the deposited data

Results flagged for a closer look

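In 11 of 172 values examined, 1 of the 4 pairs lay far from the other 3, by a gap above the critical value of Dixon's test for 4 values; chance gives about 1 in 20. The wild type pair of batch 2 stood apart for ATF4 (1.59 on the log2 scale, others 0.81 to 0.90), MTHFD1L (1.51, others 0.93 to 0.98), ASNS (3.17, others 1.78 to 2.00), AMIGO2 (3.66, others 1.00 to 1.35) and MT1X (2.90, others 4.04 to 4.16). For the first 4 genes it was the highest pair and for MT1X the lowest. The wild type pair of batch 1 was lowest for SLC39A14 (0.28, others 0.68 to 0.72), for the median of immediate early genes (0.10, others 0.30 to 0.34) and for the median of transsulfuration and glutathione genes (0.14, others 0.21 to 0.22). The pair labelled knockout in batch 2 was lowest for RELB (0.63, others 0.78 to 0.79) and KDSR (0.37, others 0.90 to 0.96), and the pair labelled knockout in batch 1 was highest for TGFA (0.96, others 0.45 to 0.54).

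In 3 results the batches moved in opposite directions. NDRG1 had a medium by batch term of −1.98 on the log2 scale, called by limma. TGF-beta and YAP targets had pair medians of −0.21 and −0.42 in batch 1, and 0.88 and 1.02 in batch 2. Genes of the eIF2 pathway and translation brakes had −0.08 and −0.02 in batch 1, and 0.07 and 0.22 in batch 2. The differences of these 2 lists were not tested. Over all genes tested the pair medians were 0.004 and −0.007 in batch 1, and 0.056 and 0.045 in batch 2. A small shift in the same direction as that of the eIF2 list was thus present over all genes.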

How the results depend on the processing

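The 423 higher and 209 lower genes kept their direction in all 21 alternatives wherever they were tested. As all of them had 1 sign in all 4 pairs, only rescaling or centring of the libraries could have changed it. In the other alternatives the direction was fixed in advance. The number past the limma threshold varied. It was within 1.5 times of these counts with a pseudocount of 0.1 or 5, a filter of 5 FPKM, a robust prior, protein-coding genes only and centring on the median. It was 75 and 11 with 1 FPKM in at least 2 libraries, 85 and 18 with a mean of 1 FPKM, and 0 and 0 with no filter (3615 genes at an unadjusted p under 0.05). It was 271 and 240 with equal sums, 243 and 121 without a trend, 0 and 0 with no replicate block (443 unadjusted), and 103 and 24 with a replicate block by batch and no pair block. Without 1 pair it was 117 to 161 and 19 to 48, with fewer libraries in each fit. It was 90 and 19 within wild type, 48 and 9 within cells labelled knockout, 306 and 204 within batch 1, and 384 and 125 within batch 2. Apart from fewer libraries, the cause of these differences was not tested.

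The medium by genotype term was called for 7 and 4 genes with the 2 wider filters, 1 with equal sums, 1 with a robust prior and 0 to 8 without 1 pair. The medium by batch term was called for 19 and 16 genes with the wider filters, 3 with equal sums, 4 with a robust prior, 40 with protein-coding genes only, 0 to 35 without 1 pair, and 0 with no filter, without a trend or with the batch block. NDRG1 was higher, by 0.24, within batch 1, against −0.75 over all pairs. Of 138 named genes called, 24 were called in 19 or more alternatives, among them MT1X, TRIB3, ASNS, SARS, PSAT1, HSP90AA1 and CLDN4, and 45 in under 10. Depth is unknown, so what it limits could not be given.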
